A study of Homo sapiens with 15 samples.

Results

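The enzymes that modify collagen while it is made were followed across 5 sublines of VCaP, an established prostate cancer cell line. The set held 8 of the 58381 genes counted: the lysyl hydroxylases PLOD1, PLOD2 and PLOD3, the prolyl 4-hydroxylase alpha subunits P4HA1, P4HA2 and P4HA3, their shared beta subunit P4HB, and lysyl oxidase, LOX. It was selected on the level of PLOD2, high in the enzalutamide-resistant sublines and low in the others, so the PLOD2 values are given as a description without a test, and only the other 7 genes were tested. All 8 genes passed the filter on low counts, P4HA3 with between 1 and 49 fragments per library.

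Bulk RNA-seq of 15 libraries, 3 biological replicates per subline, was analysed. VCaP-T had grown with 10 nM testosterone for 7 months. VCaP-CT derives from these cells and spent 10 more months at 0.1 nM testosterone. VCaP-CT-ER had regrown from VCaP-CT under 10 µM of the prostate cancer drug enzalutamide (ENZ), VCaP-CT-BR came from VCaP-CT under the older drug bicalutamide, and VCaP-CT-BR-ER came from bicalutamide-insensitive cells under ENZ. All were kept in RPMI medium with charcoal-stripped serum. The study's methods write VCaP-CT-ET where the labels have VCaP-CT-ER, and both names were taken to mean 1 subline. The labels disagree with this history in that they give 10 nM testosterone throughout, and they mention ENZ after bicalutamide for VCaP-CT-BR too, so whether those cells had met ENZ is unclear. One derivation of each subline is described, so drug, time in culture and derivation cannot be told apart, and p-values measure the spread between replicates of 1 derivation. The libraries held 33665716 to 46935279 counted fragments, the lowest correlation of log2 CPM within a subline was 0.9938, and the highest between sublines was 0.9704. In the comparisons, the low-testosterone step sets VCaP-CT against VCaP-T, the bicalutamide step VCaP-CT-BR against VCaP-CT, the direct ENZ step VCaP-CT-ER against VCaP-CT, and the late ENZ step VCaP-CT-BR-ER against VCaP-CT-BR. Levels are given as CPM, fragment counts scaled to a common library size with edgeR's TMM factors, and levels of different genes are compared only as CPM per kb of exonic length.

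Collagen chains are hydroxylated in the endoplasmic reticulum before they fold into a triple helix. Prolyl 4-hydroxylases, tetramers of P4HA and P4HB subunits, make the hydroxyproline that keeps the helix stable at body temperature. Lysyl hydroxylases make hydroxylysine, which carries sugars and takes part in cross-links, and PLOD2 is known for hydroxylating the telopeptides at the ends of the chains. LOX acts outside the cell and oxidises lysine and hydroxylysine to the aldehydes from which cross-links form. The hydroxylases need oxygen, iron, oxoglutarate and ascorbate, and PLOD2, P4HA1, P4HA2 and LOX are known targets of hypoxia-inducible factors.

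PLOD2 lies on chromosome 3 from 146069440 to 146163653 on the minus strand of GRCh38, with 7646 exonic bases in the counting annotation. PLOD1 is on chromosome 1 from 11934205 to 11975538, and PLOD3 on chromosome 7 from 101205977 to 101218420. LOX is on chromosome 5 from 122063195 to 122078360, on the same chromosome as P4HA2, which runs from 132191838 to 132295315. P4HA1 lies on chromosome 10 from 73007217 to 73096974, P4HA3 on chromosome 11 from 74235801 to 74311657, and P4HB on chromosome 17 from 81843159 to 81860694. PLOD1 is on the plus strand and the other 7 genes on the minus strand.

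The promoters of the PLOD family and of LOX are shown because PLOD2 and LOX, both known hypoxia targets, had different patterns, and because PLOD1 and PLOD3 did not share that of PLOD2. Each is the 250 bases before the RefSeq transcription start on GRCh38.p14, read 5′ to 3′ on the strand of the gene, with capitals for the hypoxia response core, ACGTG or GCGTG, or its reverse complement, CACGT or CACGC. The windows are chr3:146161185-146161434 for PLOD2, chr5:122078260-122078509 for LOX, chr1:11934467-11934716 for PLOD1 and chr7:101217582-101217831 for PLOD3. The RefSeq starts of PLOD1, PLOD2, PLOD3 and LOX differ from the outer ends of the genes in the counting annotation.
PLOD2: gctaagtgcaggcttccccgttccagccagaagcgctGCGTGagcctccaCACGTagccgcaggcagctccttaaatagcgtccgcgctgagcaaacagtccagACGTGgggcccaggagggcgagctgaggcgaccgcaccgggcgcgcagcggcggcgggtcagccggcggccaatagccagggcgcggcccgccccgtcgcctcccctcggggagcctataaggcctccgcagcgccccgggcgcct
LOX: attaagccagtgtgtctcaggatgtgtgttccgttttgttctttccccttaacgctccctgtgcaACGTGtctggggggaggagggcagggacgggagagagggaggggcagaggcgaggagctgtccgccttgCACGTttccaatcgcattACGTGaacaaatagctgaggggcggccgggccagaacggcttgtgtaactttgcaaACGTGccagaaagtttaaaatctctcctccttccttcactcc
PLOD1: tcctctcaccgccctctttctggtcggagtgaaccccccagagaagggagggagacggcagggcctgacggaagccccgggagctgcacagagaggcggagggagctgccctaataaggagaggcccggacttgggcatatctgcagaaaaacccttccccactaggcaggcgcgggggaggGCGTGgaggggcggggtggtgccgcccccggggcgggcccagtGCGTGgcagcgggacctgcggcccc
PLOD3: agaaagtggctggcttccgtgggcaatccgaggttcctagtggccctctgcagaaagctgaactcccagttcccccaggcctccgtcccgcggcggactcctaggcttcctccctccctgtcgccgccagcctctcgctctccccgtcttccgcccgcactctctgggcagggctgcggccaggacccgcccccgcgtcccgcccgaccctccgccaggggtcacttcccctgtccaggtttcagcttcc
The core was found 3 times in the PLOD2 window, at 213, 200 and 146 bases before the start, and 4 times in the LOX window. PLOD1 held 2 matches, P4HA1 and P4HB 1 each, and PLOD3 and P4HA2 none, and P4HA3 was not analysed here. Of 27305 promoters of the same length, 43.1% held at least 1 match, 19.5% at least 2, 7.89% at least 3 and 3.26% at least 4. The CCAAT box was in the windows of PLOD2, P4HA2, P4HB and LOX and in 33% of all promoters. A match describes the letters and is not evidence of binding.

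PLOD2 was the most variable member. VCaP-CT-ER held 187, 172 and 215 CPM in its 3 libraries, from 9009, 8236 and 8670 fragments. VCaP-CT-BR-ER held 60.7, 62.8 and 66.4 CPM. The 9 libraries of the other sublines lay far below both, with no overlap between any neighbours in the order of sublines. Next came VCaP-T, with 2.51, 2.86 and 3.32 CPM. VCaP-CT-BR held 1.40, 1.28 and 1.78 CPM, and VCaP-CT 0.604, 0.541 and 0.447 CPM, from as few as 16 to 20 fragments. The mean of VCaP-CT-ER, 191 ± 22 CPM (SD, n = 3), was 360 times that of VCaP-CT and 3.02 times that of VCaP-CT-BR-ER, and the mean of VCaP-CT-BR-ER, 63.3 ± 2.89 CPM, was 42.5 times that of VCaP-CT-BR. In bulk RNA, fewer cells with a transcript and less of it per cell cannot be told apart.

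In the fit across all 19621 tested genes, the log2 fold change of PLOD2 was 8.49 (SE 0.133) in the direct ENZ step and 5.40 (SE 0.115) in the late ENZ step, ranks 21 and 18 from the highest. It was −2.45 (SE 0.203) in the low-testosterone step and 1.49 (SE 0.232) in the bicalutamide step. These values chose the gene set and carry no test. PLOD2 was therefore below its VCaP-T level in both sublines that precede the ENZ-resistant ones and above it in both ENZ-resistant sublines.

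**Figure D1:**
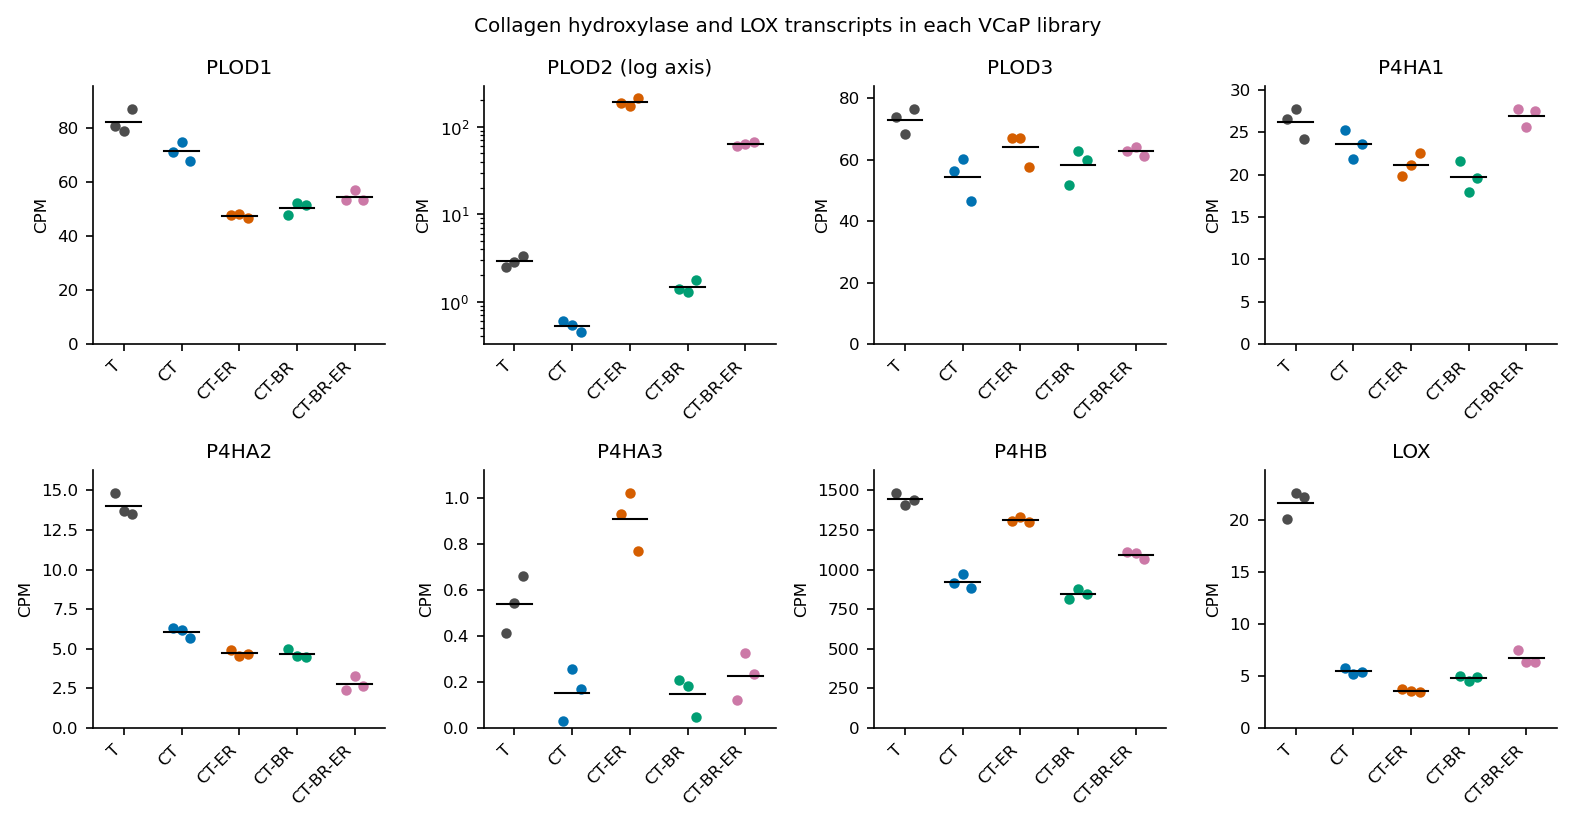
CPM of each of the 8 genes in each of the 15 libraries, by subline, with 1 point per library and a bar at the mean of 3. PLOD2 is on a log axis and the other 7 genes on linear axes from 0. PLOD2 was highest in VCaP-CT-ER, at 172 to 215 CPM, and lowest in VCaP-CT, at 0.447 to 0.604 CPM.

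In CPM per kb, PLOD2 went from place 7 of the 8 members in VCaP-CT, at 0.0694 ± 0.0103 (SD, n = 3), to place 2 in VCaP-CT-ER, at 25 ± 2.88, below P4HB alone. It ranked 5 in VCaP-CT-BR-ER, at 8.27 ± 0.378 CPM per kb, and 7 in VCaP-T and VCaP-CT-BR. The make-up of the PLOD family shifted with it. PLOD2 accounted for 55.2% ± 4.06 (SD, n = 3) of the summed CPM per kb of the 3 PLOD genes in VCaP-CT-ER and 28% ± 1.25 for VCaP-CT-BR-ER, against 1.32% ± 0.151 for VCaP-T, 0.98% ± 0.174 for VCaP-CT-BR and 0.3% ± 0.0323 for VCaP-CT. The summed level was 45.2 ± 1.89 CPM per kb for VCaP-CT-ER and 29.6 ± 0.611 for VCaP-CT-BR-ER, and 28.7 ± 1.47 for VCaP-T, 23.1 ± 1.88 for VCaP-CT and 19.9 ± 1.47 for VCaP-CT-BR. The plot of family shares by library shows the same in each replicate.

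**Figure D2:**
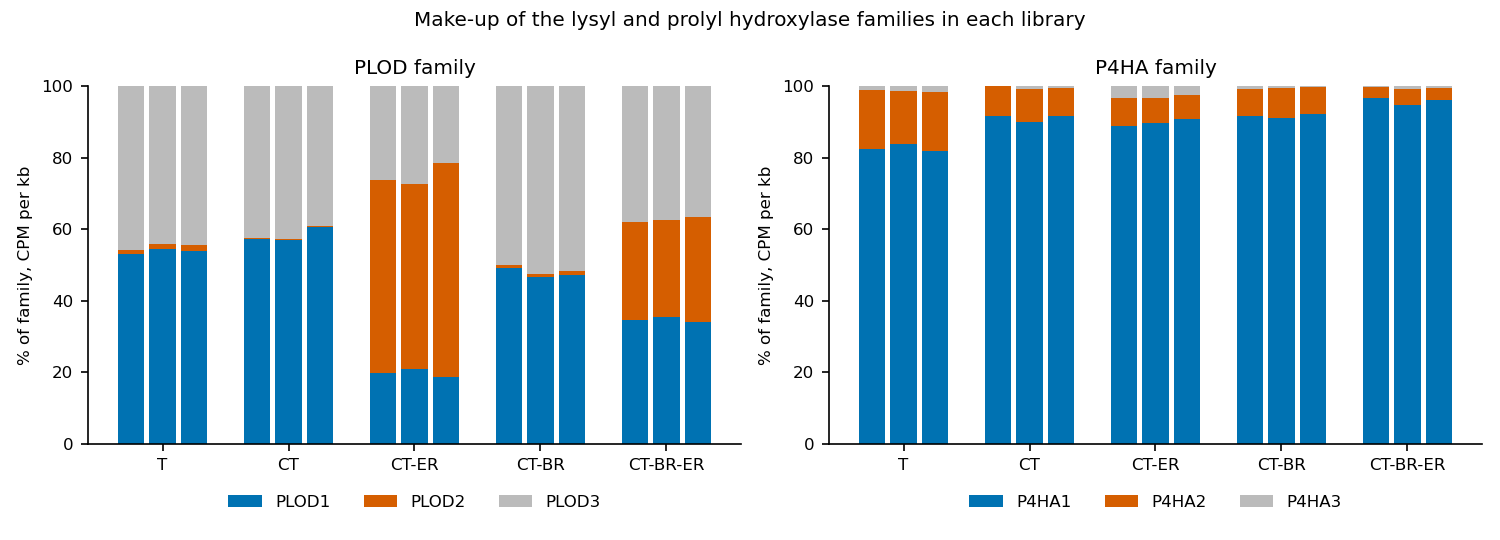
Share of each PLOD gene, left, and each P4HA gene, right, in the summed CPM per kb of its family, with 1 stacked bar per library and 3 bars per subline. PLOD2 held 51.9 to 59.8% of the PLOD family in the VCaP-CT-ER libraries, and P4HA1 held 81.7 to 96.6% of the P4HA family in all libraries.

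PLOD1, which hydroxylates lysines of the helix, moved the other way in VCaP-CT-ER. Its level was 80.6, 78.9 and 86.8 CPM for VCaP-T, 71.2, 74.9 and 67.9 for VCaP-CT, and 47.6, 48 and 46.8 for VCaP-CT-ER. Values in VCaP-CT-BR were 47.6, 52.2 and 51.3 CPM, and in VCaP-CT-BR-ER 53.2, 56.9 and 53.3 CPM. VCaP-T lay above all others and VCaP-CT above the 3 drug-treated sublines, while VCaP-CT-ER and VCaP-CT-BR overlapped. PLOD1 fell in the low-testosterone step (log2 fold change −0.20, SE 0.0545, adjusted p = 0.00262), in the direct ENZ step (−0.59, SE 0.0552, 8.26e-09) and in the bicalutamide step (−0.50, SE 0.0553, 1.69e-07). Its difference in the late ENZ step, 0.11 (SE 0.0555), did not pass the test (adjusted p = 0.108). All adjusted p-values are from edgeR's quasi-likelihood test with Benjamini-Hochberg adjustment over the 19621 genes.

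PLOD3, a lysyl hydroxylase that also transfers glucose to hydroxylysine, varied least, 1.34-fold between the highest and the lowest subline mean. Its level was 74, 68.4 and 76.3 CPM for VCaP-T and 56.4, 60.2 and 46.5 for VCaP-CT. VCaP-CT-ER held 67.1, 67.1 and 57.7 CPM, VCaP-CT-BR 51.7, 62.9 and 60, and VCaP-CT-BR-ER 62.8, 64.1 and 61.3. Only VCaP-T stood apart from its neighbour in the order. PLOD3 fell in the low-testosterone step (−0.42, SE 0.0844, adjusted p = 0.000161) and rose in the direct ENZ step (0.24, SE 0.0842, adjusted p = 0.0203). The rise depended on single libraries, with adjusted p = 0.114 without VCaP-CT replicate 3, 0.0586 without VCaP-CT-ER replicate 1 and 0.0686 without VCaP-CT-ER replicate 2. The differences in the bicalutamide step (0.10, SE 0.0848) and the late ENZ step (0.11, SE 0.0841) did not pass the test (adjusted p = 0.344 and 0.324). PLOD3 shares 429 exonic bases, 7.56% of its length, with ZNHIT1 on the other strand, and the counting ignored strand; ZNHIT1 differed by −0.05 (SE 0.0718) in the direct ENZ step.

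P4HB, the beta subunit of prolyl 4-hydroxylase and itself a protein disulfide isomerase, was the most abundant member per length in every subline, at 160 to 272 CPM per kb on average. Its levels were 1480, 1408 and 1439 CPM for VCaP-T, 913, 973 and 881 for VCaP-CT, and 1304, 1329 and 1300 for VCaP-CT-ER. VCaP-CT-BR held 817, 877 and 846 CPM and VCaP-CT-BR-ER 1110, 1107 and 1067. No neighbours in the order overlapped, and each ENZ-resistant subline lay above the subline it came from. P4HB fell by 0.65 on the log2 scale in the low-testosterone step (SE 0.0451, adjusted p = 5.97e-11). It rose in the direct ENZ step (0.51, SE 0.045, adjusted p = 3.38e-09) and in the late ENZ step (0.37, SE 0.045, adjusted p = 9.38e-07), and the 2 ENZ steps did not differ past the threshold (0.14, SE 0.0635, adjusted p = 0.0782; 0.0198 without VCaP-CT replicate 2). The small fall in the bicalutamide step (−0.12, SE 0.045, adjusted p = 0.0266) was lost without VCaP-CT replicate 1 (0.0792) or 2 (0.252), without VCaP-CT-BR replicate 1 (0.106) or 3 (0.0684), and when only the compared sublines were fitted (0.103).

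P4HA1, the main alpha subunit, made up 82.6% to 95.8% of the summed P4HA level per length as a mean per subline. Its levels were 26.6, 27.7 and 24.2 CPM for VCaP-T, 25.3, 21.8 and 23.6 for VCaP-CT, 19.8, 21.1 and 22.5 for VCaP-CT-ER, 21.6, 18 and 19.6 for VCaP-CT-BR, and 27.7, 25.6 and 27.5 for VCaP-CT-BR-ER. Neighbouring sublines all overlapped in the order of the means. P4HA1 rose in the late ENZ step (0.45, SE 0.0771, adjusted p = 6.83e-05), while its difference in the direct ENZ step was −0.16 (SE 0.0772, adjusted p = 0.0837; 0.0393 without VCaP-CT replicate 2). It fell in the bicalutamide step (−0.26, SE 0.0781, adjusted p = 0.00884; 0.0653 without VCaP-CT replicate 1 and 0.0596 without VCaP-CT-BR replicate 2). The change in the low-testosterone step, −0.15 (SE 0.077), had adjusted p = 0.0935, or 0.0295 without VCaP-T replicate 3 and 0.0353 without VCaP-CT replicate 1.

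P4HA2, another alpha subunit, fell at every step. VCaP-T held 14.8, 13.7 and 13.5 CPM, VCaP-CT 6.28, 6.21 and 5.67, VCaP-CT-ER 4.95, 4.57 and 4.69, VCaP-CT-BR 4.98, 4.53 and 4.46, and VCaP-CT-BR-ER 2.41, 3.28 and 2.62. VCaP-T was highest and VCaP-CT-BR-ER lowest, without overlap, and VCaP-CT-ER and VCaP-CT-BR overlapped. The log2 fold changes were −1.21 (SE 0.0924, adjusted p = 2.48e-10) in the low-testosterone step, −0.35 (SE 0.1, 0.00457) in the direct ENZ step, −0.38 (SE 0.102, 0.00373) in the bicalutamide step and −0.75 (SE 0.112, 1.27e-05) in the late ENZ step. P4HA2 thus fell in both ENZ steps, in which P4HB rose. It shares 548 exonic bases, 6.45% of its length, with P4HA2-AS1 on the other strand, which had at most 3 fragments per library. The ratio of P4HB to the summed P4HA level per length was 32.5 ± 1.76 (SD, n = 3) for VCaP-CT-ER and 22.7 ± 1.09 for VCaP-CT-BR-ER, against 26.6 ± 1.79 for VCaP-T, 20.9 ± 2.18 for VCaP-CT and 23.1 ± 2.79 for VCaP-CT-BR. Only the VCaP-CT-ER libraries, at 30.6 to 34.1, did not overlap with those of any other subline.

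P4HA3, the least abundant alpha subunit, was counted with 45, 49 and 31 fragments for VCaP-CT-ER (0.932, 1.02 and 0.77 CPM). VCaP-T held 15, 20 and 28 fragments, VCaP-CT 1, 9 and 6, VCaP-CT-BR 8, 7 and 2, and VCaP-CT-BR-ER 5, 12 and 9. VCaP-CT-ER was above all others, and the 3 lowest sublines overlapped. P4HA3 fell in the low-testosterone step (−1.80, SE 0.467, adjusted p = 0.00199) and rose in the direct ENZ step (2.55, SE 0.423, adjusted p = 2.41e-05). Without VCaP-CT replicate 2 these were −2.39 and 3.14, and across the alternatives they ranged from −2.39 to −1.35 and from 2.10 to 3.14. The differences in the bicalutamide step (−0.08, SE 0.6, adjusted p = 0.927) and the late ENZ step (0.62, SE 0.542, adjusted p = 0.387) did not pass the test at this depth. P4HA3 shares 166 exonic bases with PPME1 on the other strand, which reached 3067 fragments and differed by 0.21 (SE 0.0479) in the direct ENZ step. Fragments on the shared bases were dropped in the counting and are in the counts of neither gene.

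LOX had the lowest log2 fold change of the 7 tested genes in the low-testosterone step, and that of P4HA3 lay within its standard error of it. VCaP-T held 20.1, 22.6 and 22.3 CPM and VCaP-CT 5.74, 5.24 and 5.42. VCaP-CT-ER held 3.77, 3.53 and 3.43 CPM, VCaP-CT-BR 5, 4.53 and 4.91, and VCaP-CT-BR-ER 7.51, 6.4 and 6.34. The neighbours in the order, VCaP-T, VCaP-CT-BR-ER, VCaP-CT, VCaP-CT-BR and VCaP-CT-ER, did not overlap. LOX fell by 1.99 on the log2 scale in the low-testosterone step (SE 0.0854, adjusted p = 1.83e-14) and by 0.61 in the direct ENZ step (SE 0.0983, adjusted p = 1.68e-05), and it rose in the late ENZ step (0.49, SE 0.0927, adjusted p = 0.000202). The difference in the bicalutamide step was −0.18 (SE 0.0964, adjusted p = 0.119). LOX shares 138 exonic bases, 2.49% of its length, with SRFBP1 on the other strand, which moved by 0.48 (SE 0.0964) in the low-testosterone step. PLOD2 and LOX, both of which act on telopeptide lysines, were thus at opposite ends in VCaP-CT-ER, where PLOD2 was highest and LOX lowest of the 5 sublines.

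**Figure D3:**
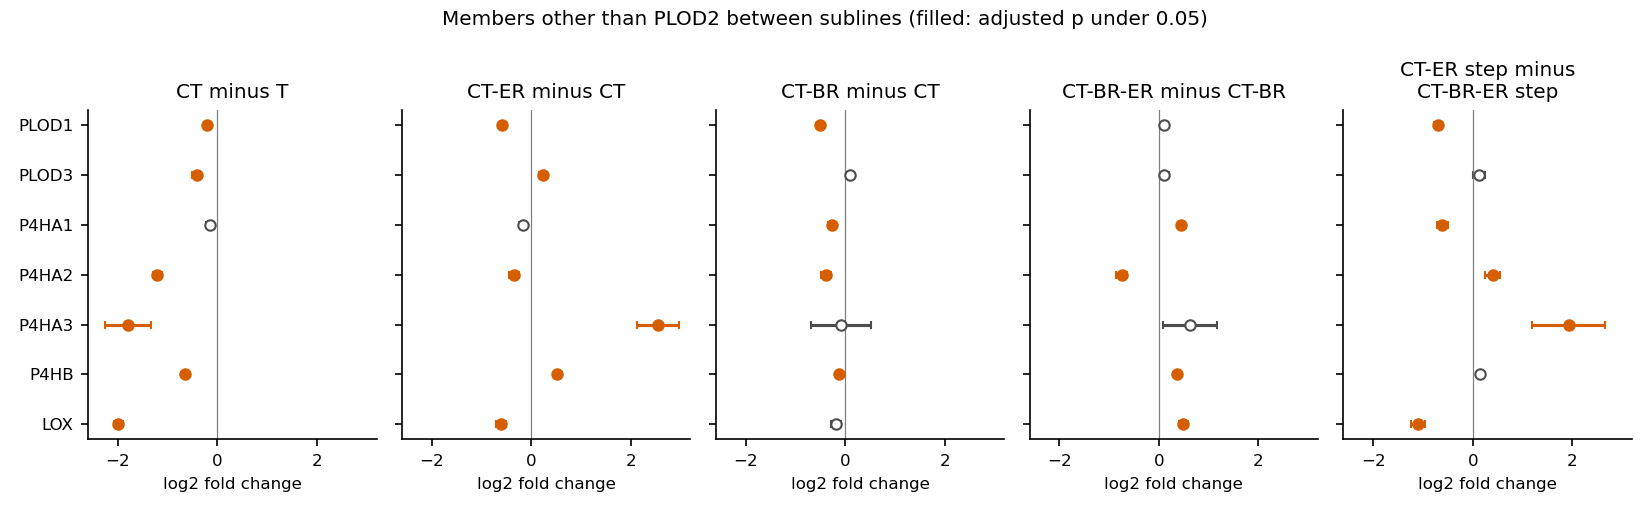
Log2 fold changes with standard errors of the 7 tested genes in 4 steps between sublines and, on the right, in the direct minus the late ENZ step. Filled points passed the adjusted p threshold of 0.05. P4HB rose in both ENZ steps, by 0.51 and 0.37, P4HA2 fell in both, and LOX fell by 0.61 in the direct ENZ step and rose by 0.49 in the late one.

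Counts of members are read against the share of all tested genes that passed. In the low-testosterone step, 6 of the 7 passed and all 6 were lower, where 65.3% of all genes passed and 32.2% passed as lower; the median log2 fold change was −0.65, against 0.03 over all genes. In the direct ENZ step, 6 of 7 passed, 3 higher and 3 lower, where 60.9% of all genes passed (medians −0.16 and −0.02). In the bicalutamide step, 4 of 7 passed, all lower, where 53.2% of all genes passed and 27% as lower (medians −0.18 and −0.02). In the late ENZ step, 4 of 7 passed, 3 higher and 1 lower, where 42.9% of all genes passed (medians 0.37 and 0.00). The first 3 of these steps share the VCaP-CT libraries, and the 57.1% of members in the bicalutamide step is near its background.

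The response to ENZ differed between the direct and the late step for 5 of the 7 genes, where 49.7% of all genes passed (medians 0.13 and −0.01). LOX fell in the direct step and rose in the late one, a difference of −1.10 (SE 0.135, adjusted p = 8.72e-07). PLOD1 differed by −0.70 (SE 0.0782, adjusted p = 2.28e-07) and P4HA1 by −0.61 (SE 0.109, adjusted p = 9.37e-05). The differences of P4HA2 (0.40, SE 0.15, adjusted p = 0.0318) and P4HA3 (1.93, SE 0.733, adjusted p = 0.034) each lost the call without any of 5 single libraries. For P4HA2 these were VCaP-CT replicate 3 (0.0594), VCaP-CT-ER replicate 1 (0.0635), VCaP-CT-BR replicate 1 (0.0798) and VCaP-CT-BR-ER replicates 1 (0.109) and 3 (0.0703), and the call was also lost with no filter on low counts (0.0568). For P4HA3 they were VCaP-CT replicate 1 (0.0798), VCaP-CT-ER replicate 2 (0.0575), VCaP-CT-BR replicates 1 (0.137) and 2 (0.0987) and VCaP-CT-BR-ER replicate 1 (0.0799). P4HB and PLOD3 (0.13, SE 0.119, adjusted p = 0.397) did not pass. The untested difference of PLOD2 was 3.09 (SE 0.238).

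Genes next to PLOD2 were read as a description. ENSG00000261051, an unnamed gene on the same strand at chr3:146059585-146061679, 7.76 kb beyond the 3′ end of PLOD2, had 0 fragments in all 9 libraries of VCaP-T, VCaP-CT and VCaP-CT-BR. It had 42, 54 and 65 fragments for VCaP-CT-ER and 7, 10 and 10 for VCaP-CT-BR-ER, the sublines with high PLOD2. ENSG00000243415, on the other strand, overlaps part of the PLOD2 gene and reaches beyond its 3′ end, without shared exonic bases. It had 14, 9 and 3 fragments for VCaP-CT-ER, 7, 3 and 0 for VCaP-CT-BR-ER and at most 1 elsewhere. PLSCR4, 28.7 kb beyond the 5′ end, had 18, 32 and 29 fragments for VCaP-CT-ER and at most 2 in any other library, VCaP-CT-BR-ER included. PLSCR1, a phospholipid scramblase 352 kb away, held 2.38, 2.59 and 2.63 CPM for VCaP-CT-ER and 0.437, 0.38 and 0.419 for VCaP-CT-BR-ER. Over the 20 nearest tested genes, 10 on each side, the median log2 fold change was 0.65 in the direct ENZ step and 0.27 in the late ENZ step.

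The genes whose log2 CPM followed PLOD2 most closely over the 15 libraries, among 13051 genes with a mean log2 CPM of at least 1, were FAM210B (Pearson r = 0.9904), CWH43 (0.9852), TMEM39A (0.9845), SUDS3 (0.9833), RTN4RL1 (0.9790), FAM43A (0.9788), GPR27 (0.9786), SPATA13 (0.9781), SEC61A1 (0.9764) and APOD (0.9758). Of these 10, TMEM39A, FAM43A, GPR27, SEC61A1 and APOD are on chromosome 3, as PLOD2 is and as were 5.75% of the 13051 genes. They were picked by the same PLOD2 values that chose the gene set, and the count carries no test. The libraries form 5 sublines of 3, so these values mostly reflect 5 levels. FAM210B ranged from 140 CPM for VCaP-CT to 273 for VCaP-CT-ER on average, and CWH43 from 9.03 to 155. Among the members, the correlation with PLOD2 was 0.58 for P4HA3, 0.51 for P4HB and 0.31 for PLOD3, 0.09 for P4HA1, −0.30 for LOX, −0.47 for P4HA2 and −0.59 for PLOD1.

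Collagen chains themselves, the substrates, mostly fell in VCaP-CT-ER. Of 44 chain genes, 28 were tested, and 7 were higher and 17 lower than in its precursor (median log2 fold change −0.81, against −0.02 over all genes; 29.6% of all genes passed as higher and 31.2% as lower). COL7A1, an anchoring fibril collagen, rose (1.72, SE 0.122, adjusted p = 9.36e-11), as did COL28A1 (3.91, SE 0.166, 1.87e-14), whereas COL5A2 (−2.01, SE 0.092, 6.38e-14) and COL16A1 (−1.50, SE 0.18, 3.18e-07) fell. In the late ENZ step, 12 were higher and 7 lower (median 0.47, against 0.00; background 21.2% and 21.7%), with COL7A1 up by 1.85 (SE 0.139, adjusted p = 7.69e-10) and COL5A2 up by 1.82 (SE 0.078, adjusted p = 7.99e-14). In the low-testosterone step, 8 were higher and 15 lower (background 33.1% and 32.2%), and in the bicalutamide step, 4 were higher and 18 lower (26.1% and 27%). The fibrillar chains of types I and III were scarce: COL1A2 had 0 fragments in every library, COL3A1 at most 7, and COL1A1 a mean of 6.56 CPM for VCaP-T and 0.431 for VCaP-CT-ER. COL11A1, singled out after its values were seen, had 355, 297 and 276 fragments for VCaP-CT-BR-ER, 4, 15 and 20 for VCaP-CT-ER and 0 in the other 9 libraries.

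Other genes of collagen modification and folding, 12 in all, split. In VCaP-CT-ER 6 were higher and 5 lower (median 0.02), and in VCaP-CT-BR-ER 5 were higher and 1 lower (median 0.13), where 29.6% of all genes passed as higher and 31.2% as lower in the direct ENZ step, and 21.2% and 21.7% in the late one. P3H2, a prolyl 3-hydroxylase, held 7.86 to 8.69 CPM for VCaP-CT and 49.5 to 52.6 for VCaP-CT-ER (2.61, SE 0.0834, adjusted p = 1.64e-16). It also rose from VCaP-T, where it had 5 to 19 fragments per library, to VCaP-CT (4.94, SE 0.166, adjusted p = 2.73e-16). P3H2 rose in the bicalutamide step too (1.17, SE 0.0859, adjusted p = 4.24e-10) and did not pass in the late ENZ step (−0.18, SE 0.0796, adjusted p = 0.0758). In the direct ENZ step, PPIB, the prolyl isomerase of the collagen 3-hydroxylation complex, rose (0.90, SE 0.0516, adjusted p = 3.09e-12). FKBP10, a chaperone linked to PLOD2 activity, fell in that step (−0.92, SE 0.0672, adjusted p = 1.71e-10). In the late ENZ step, PPIB rose (0.41, SE 0.0515, adjusted p = 1.68e-06) and FKBP10 did not pass (0.12, SE 0.0671, adjusted p = 0.174). The low-testosterone step had 4 higher and 3 lower, where 33.1% and 32.2% of all genes passed as higher and lower. The bicalutamide step had 3 higher and 8 lower, where these shares were 26.1% and 27%. The 9 disulfide isomerases and their oxidases, the family of P4HB, had 7 higher and 1 lower in VCaP-CT-ER (median 0.45) and 8 higher and 0 lower in VCaP-CT-BR-ER (median 0.49). The shares over all genes were those given above for the direct and the late ENZ step. ERO1A, which reoxidises them, rose by 1.25 (SE 0.0712, adjusted p = 2.62e-12) in VCaP-CT-ER and PDIA4 by 0.56 (SE 0.0421, adjusted p = 2.24e-10). PDIA2 had the largest change of the list there and fell by 1.31 (SE 0.121, adjusted p = 7.27e-09). ERO1A also rose in the bicalutamide step (0.48, SE 0.0719, adjusted p = 1.12e-05). In the late ENZ step ERO1A did not pass (−0.04, SE 0.0705, adjusted p = 0.69). There PDIA2 rose by 0.53 (SE 0.117, adjusted p = 0.000845) and PDIA6 by 0.56 (SE 0.0523, adjusted p = 2.08e-08). In the low-testosterone step the same list had 4 higher and 4 lower, beside 33.1% and 32.2% of all genes. In the bicalutamide step it had 2 higher and 7 lower, beside 26.1% and 27%.

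**Figure D4:**
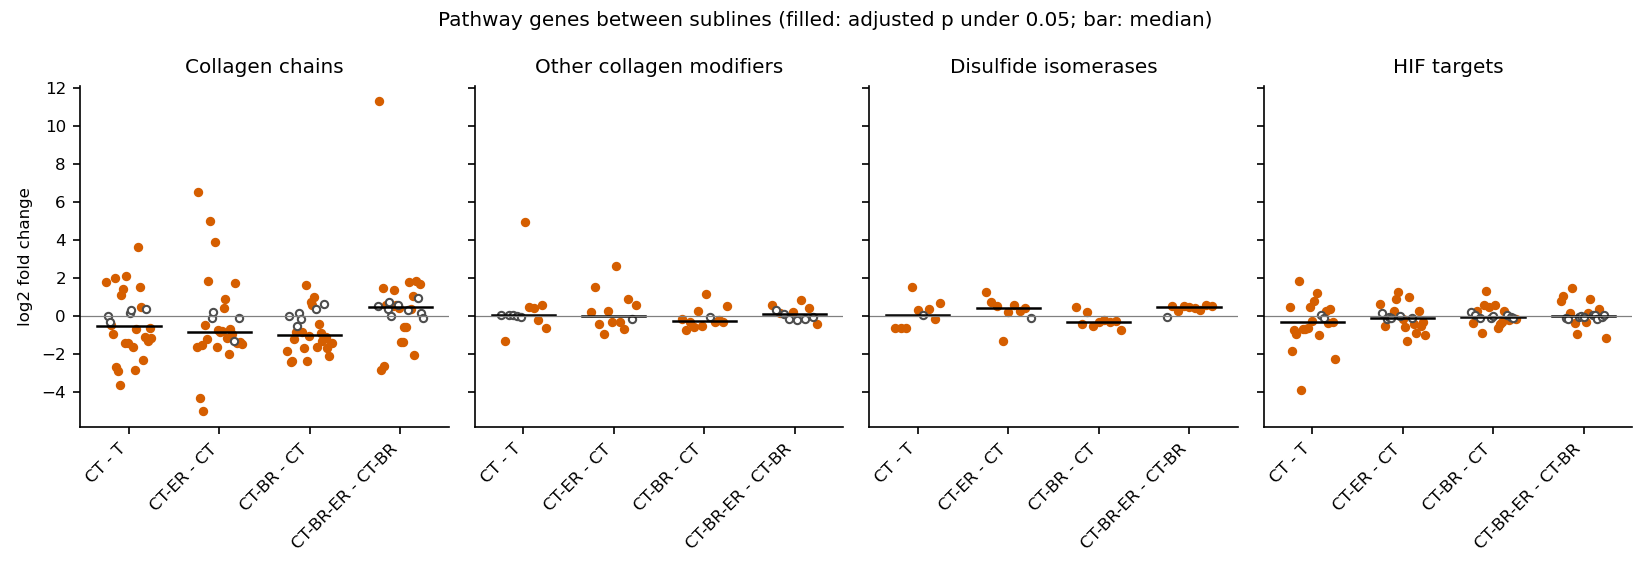
Log2 fold changes in 4 steps between sublines of the tested collagen chains, other collagen modifiers, disulfide isomerases and known hypoxia targets, with 1 point per gene, a bar at the median and filled points past the adjusted p threshold. Fold changes of genes at 0 in a subline, such as COL11A1, depend on the prior count. The median of the collagen chains was −0.81 for VCaP-CT-ER and 0.47 for VCaP-CT-BR-ER, and that of the disulfide isomerases 0.45 and 0.49.

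The other lysyl oxidases were counted next. Of LOXL1 to LOXL4, 0 were higher and 3 lower in VCaP-CT-ER, where 31.2% of all genes passed as lower. In VCaP-CT-BR-ER 0 of the 4 passed edgeR's test (0 at an unadjusted p under 0.05, and 0 by DESeq2), against 42.9% of all genes. The bicalutamide step had 0 higher and 2 lower, where 27% of all genes passed as lower. LOXL1 fell by 0.47 on the log2 scale in VCaP-CT-ER (SE 0.103, adjusted p = 0.000471) and by 0.88 in the bicalutamide step (SE 0.107, adjusted p = 6.57e-07). LOXL4, lower in both, had 0, 1 and 1 fragments for VCaP-CT-ER and 14, 25 and 16 for VCaP-CT. Of 13 tested genes of procollagen processing and export, 3 were higher and 6 lower in VCaP-CT-ER, and 7 higher and 3 lower in VCaP-CT-BR-ER, beside shares over all genes of 29.6% and 31.2% in the first and 21.2% and 21.7% in the second. MIA2, an export receptor for large cargo, rose by 2.06 (SE 0.0755, adjusted p = 1.6e-15) and TLL2, a procollagen protease, by 2.70 (SE 0.0983, adjusted p = 1.42e-15) in VCaP-CT-ER. ADAMTS3 (−1.70, SE 0.0657, adjusted p = 3.98e-15) and EFEMP2 (−1.44, SE 0.118, adjusted p = 1.02e-09) fell there. TLL2 also rose in the bicalutamide step (1.35, SE 0.104, adjusted p = 8.97e-10).

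Regulators of hypoxia were mixed in the ENZ steps. In the low-testosterone step, 1 of 5 tested genes of the hypoxia-inducible factors and VHL was higher and 4 were lower. HIF1A fell there by 1.05 on the log2 scale (SE 0.0539) and EPAS1 by 0.83 (SE 0.0745). EPAS1, the gene of HIF-2alpha, held 57.2, 57 and 59.8 CPM for VCaP-CT-ER against 12.4, 12.8 and 12.5 for VCaP-CT (2.20, SE 0.0726, adjusted p = 2.72e-16). In VCaP-CT-BR-ER it held 16.6, 18.9 and 17.6 CPM against 13.1, 14.3 and 16.2 for VCaP-CT-BR (0.28, SE 0.0737, adjusted p = 0.00363). HIF1A rose by 0.14 (SE 0.0536, adjusted p = 0.0305; 0.124 without VCaP-CT replicate 2, 0.0921 without VCaP-CT-ER replicate 3 and 0.0505 with 75th percentile scaling) in the direct ENZ step and fell by 0.35 (SE 0.054, adjusted p = 1.71e-05) in VCaP-CT-BR-ER. Of 21 tested known hypoxia targets outside the 8 members, 6 were higher and 9 lower in VCaP-CT-ER (median −0.10), and 7 higher and 4 lower in VCaP-CT-BR-ER (median 0.03). Over all genes, 29.6% passed as higher and 31.2% as lower in the first and 21.2% and 21.7% in the second, so the count of higher genes in the first and of lower genes in the second lay near the background. VEGFA fell in both, by 1.00 and 1.13, whereas NDRG1 rose in both (0.99, SE 0.0442, adjusted p = 4.43e-14, and 0.90, SE 0.0442, adjusted p = 7.72e-13). Of the 5 oxygen-sensing hydroxylases, 3 of which are also on that list (as is ERO1A), 3 were higher in the direct ENZ step and 3 lower in VCaP-CT-BR-ER. In the low-testosterone step, 7 of the 21 hypoxia targets were higher and 12 lower (median −0.30), where 33.1% and 32.2% of all genes passed as higher and lower. The bicalutamide step had 6 higher and 7 lower (median −0.04), where these shares were 26.1% and 27%.

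Of 12 tested genes of TGF-beta signalling, 5 were higher and 2 lower in the direct ENZ step and 2 higher and 3 lower in VCaP-CT-BR-ER, where 21.2% and 21.7% of all genes passed as higher and lower (29.6% and 31.2% in the direct ENZ step). TGFB2, a ligand, fell in both (−1.64, SE 0.143, adjusted p = 2.38e-09, and −2.31, SE 0.0987, adjusted p = 7.82e-14), whereas TGFBR2, a receptor, rose in both (1.79, SE 0.169, adjusted p = 8.61e-09, and 1.95, SE 0.193, adjusted p = 5.14e-08). Before its late fall, TGFB2 rose in the bicalutamide step (2.43, SE 0.102, adjusted p = 8.18e-14). Its mean was 3.03 CPM for VCaP-CT, 0.965 for VCaP-CT-ER, 16.4 for VCaP-CT-BR and 3.29 for VCaP-CT-BR-ER. Of 8 genes that handle ascorbate and iron, the cofactors of the hydroxylases, 2 were higher and 4 lower in VCaP-CT-ER, and 3 higher and 4 lower in VCaP-CT-BR-ER, to be read against the same shares. SLC23A1, an ascorbate transporter, fell by 3.54 on the log2 scale in VCaP-CT-ER (SE 0.123, adjusted p = 6.85e-16), and TFRC, the transferrin receptor, rose by 0.82 (SE 0.055, adjusted p = 3.72e-11). SLC23A1 had risen in the low-testosterone step (2.70, SE 0.116, adjusted p = 1.7e-14). It also fell in the bicalutamide step (−1.74, SE 0.105, adjusted p = 2.23e-11) and the late ENZ step (−0.82, SE 0.127, adjusted p = 2e-05). Its mean was 1.8 CPM for VCaP-T, 11.7 for VCaP-CT and 1 for VCaP-CT-ER.

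Markers of prostate luminal cells were high in every library, with summed levels of 22660 to 23495 CPM for VCaP-T, 10691 to 11429 for VCaP-CT, 11885 to 12729 for VCaP-CT-ER, 7454 to 7838 for VCaP-CT-BR and 6081 to 6298 for VCaP-CT-BR-ER. The summed level of 10 fibroblast markers was, like PLOD2, higher in both ENZ-resistant sublines than in the other 3, but its order within these groups was not that of PLOD2. The sum was 186 to 218 CPM for VCaP-CT-ER and 218 to 251 for VCaP-CT-BR-ER, against 12 to 14 for VCaP-T, 13.7 to 14.8 for VCaP-CT and 25 to 26.1 for VCaP-CT-BR. Nearly all of it was LUM, the proteoglycan lumican, at 183 to 215 CPM for VCaP-CT-ER and 215 to 248 for VCaP-CT-BR-ER against 4.87 to 7.16 for VCaP-CT. DCN, the other marker that rose in both ENZ steps, had at most 22 fragments per library. Of the 5 fibroblast markers that were tested, 2 were higher and 3 lower in the direct ENZ step and 2 higher and 0 lower in the late one, against 2 and 2 in the low-testosterone step and 1 and 2 in the bicalutamide step. Over all genes, 29.6% passed as higher and 31.2% as lower in the direct ENZ step, and 21.2% and 21.7% in the late one. These shares were 33.1% and 32.2% in the low-testosterone step and 26.1% and 27% in the bicalutamide step. Of the other markers, COL1A2 had 0 fragments, and THY1 and FAP at most 3, in every library, PDGFRA at most 5, while COL1A1, PDGFRB and ACTA2 fell in VCaP-CT-ER (−1.22, −1.29 and −2.28). Their log2 fold changes in the late ENZ step, 0.38, 0.54 and −0.63, did not pass the test (adjusted p = 0.235, 0.108 and 0.063 by edgeR). The part of LUM or of the other markers in the PLOD2 values was not tested. Summed neuroendocrine markers were 10.7 to 11.3 CPM for VCaP-CT-ER and 10.2 to 11.9 for VCaP-CT-BR-ER, and 228 to 237 for VCaP-T, 24.8 to 29.5 for VCaP-CT and 18.1 to 19 for VCaP-CT-BR. Leukocyte and endothelial markers summed to at most 0.94 CPM for VCaP-CT-ER and 0.651 for VCaP-CT-BR-ER and to at most 16.5 elsewhere, with PTPRC, CD3E and CDH5 at or under 3 fragments throughout.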

How the data were processed

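Raw fragment counts per gene, as deposited by the authors, were used for 15 libraries. Per the labels and file headers, the authors aligned reads to GRCh38 with STAR 2.5.4b and counted read pairs with featureCounts 1.6.2 on GENCODE 28, ignoring strand and dropping fragments on exons of more than 1 gene. Symbols came from GENCODE 44. Groups followed the sample labels. The 8 members and all gene lists were chosen with earlier results of these data known.

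Counts were tested with edgeR 4.0.16 in R 4.3.3 (filterByExpr with a minimum count of 10, TMM, 1 term for each subline, quasi-likelihood test on all libraries, Benjamini-Hochberg adjustment, threshold 0.05). The fit was also run on simulated counts, in which few genes changed, only in VCaP-CT-ER, and all genes had the same spread. That setting differs from these data, in which 42.9% to 65.3% of genes passed per comparison. Alternatives were DESeq2 1.42.0, 75th percentile scaling, other filters, only the compared sublines, each library left out, and a replicate block. Levels were CPM with TMM factors. List examples were the up to 4 genes with the largest log2 fold change past the threshold with a mean log2 CPM of at least 1, in VCaP-CT-ER against VCaP-CT and then other steps, plus genes whose role was needed. A floor of 3 counts was used, which covers counting error only. Tables were made with Python 3.11.15 and pandas 2.3.3, and figures with matplotlib 3.10.9.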

Additional observations from a re-analysis of the deposited data

Results flagged for a closer look

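The direct ENZ step, VCaP-CT-ER against VCaP-CT, and the late one, VCaP-CT-BR-ER against VCaP-CT-BR, differed in 5 of the 7 tested genes by the interaction test of edgeR. The log2 difference was −1.10 for LOX, −0.70 for PLOD1, −0.61 for P4HA1, 0.40 for P4HA2 and 1.93 for P4HA3. LOX fell in VCaP-CT-ER and rose in VCaP-CT-BR-ER, and its groups did not overlap in either, where 49.7% of all genes passed the test of the difference. The differences of P4HA2 and P4HA3 depended on single libraries, and P4HA3 rested on 1 to 49 fragments per library. No group had enough libraries for a test of single outlying samples.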

How the results depend on the processing

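Of 833 log2 fold changes of members under 21 alternatives, 804 kept their direction and their side of the threshold, 21 lost the call, 4 gained it, 3 changed sign and 1, of PLOD2 and without a test, moved by more than the spread (5.56 in the late ENZ step without VCaP-CT-BR replicate 3). The sign changes were in uncalled values of the bicalutamide step: PLOD3 was −0.01 without VCaP-CT replicate 3 and up to 0.19 without another library, and P4HA3, between −0.52 and 0.52 without 1 library, was 0.52 without VCaP-CT replicate 2 and 0.34 without VCaP-CT-BR replicate 3. The cause was not tested. Leaving out 1 library in turn gave 6 to 7 called members in the low-testosterone step, 5 to 7 in the direct ENZ step, 2 to 4 in the bicalutamide step, 4 in the late ENZ step, and 3 to 6 for the difference of the ENZ steps. The low value of 2 came without VCaP-CT replicate 1, and that of 3 without VCaP-CT-BR replicate 1 or VCaP-CT-BR-ER replicate 1. Counts of called genes stayed within 1.5 times under every alternative. Of 3647 values of list genes called in a step, 3610 kept direction and call under the alternatives, 37 lost the call and 0 changed sign. The tested collagen chains had 4 to 7 higher and 12 to 17 lower in the direct ENZ step and 10 to 13 higher and 4 to 7 lower in the late one. P4HA3 gave no value when at least 10 counts were required in every library. Other scalings moved the median of all genes to at most 0.064 and at least −0.059.

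Same-numbered replicates deviated together in part: 11 of 30 correlations were over 0.1, between −0.474 and 0.468, and 0 of 10 pairs of sublines had all 3 over 0.1. Replicate 2 correlated positively between all sublines other than VCaP-T, from 0.173 to 0.433. With VCaP-T its correlations were negative, from −0.464 to −0.204. The source of this was not tested. With the replicate block, 12727, 11861, 10322 and 8378 genes were called in the low-testosterone, direct ENZ, bicalutamide and late ENZ steps and 9659 in the difference, with 6, 6, 4, 4 and 5 members. Depth limits P4HA3 and, in VCaP-CT, PLOD2, which had 16 to 20 fragments there.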
